A study of Bos taurus with 2 samples.

Results

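The mitochondrial respiratory chain is built from the products of 2 genomes, and the features described here are its nuclear genes. They were chosen by name from the feature list of the deposited count matrix, as every feature whose symbol began with NDUF and A, B, C, S or V and a digit (complex I), was SDHA to SDHD (complex II), or began with UQCR (complex III), COX4 to COX8 (complex IV) or ATP5 (complex V), and that had at least 1 UMI. Of 21867 features, 16816 were detected, and 81 of these were respiratory chain members: 39 of complex I, 4 of complex II, 8 of complex III, 12 of complex IV and 18 of complex V. The choice was by name, and the condition of 1 UMI removed no feature. The names were set with earlier results of these data known. The symbol NDUFA12 was carried by 2 identifiers, ENSBTAG00000014669 and ENSBTAG00000048722, whose reads may have been divided between them, so either level is uncertain. COX5B, COX6B1, COX6C and COX7C, and the mitochondrially encoded subunits, had no feature of that symbol at hand and were not analysed here.

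Complexes I and II pass electrons from NADH and succinate to ubiquinone, complex III passes them on to cytochrome c, and complex IV, cytochrome c oxidase, passes them to oxygen. Complexes I, III and IV pump protons across the inner mitochondrial membrane, and complex V, ATP synthase, uses the returning protons to make ATP. Muscle is rich in these complexes, and several subunits of complex IV exist as a widely expressed form and a form of heart and skeletal muscle encoded by another gene.

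The cells came from the longissimus muscle of 1 male Holstein calf aged 2 weeks and were grown as satellite cells, the stem cells of skeletal muscle, for 1 week in DMEM with 10% FBS, with no further treatment. From the same cells 2 droplet libraries were prepared, called replicates 1 and 2 here. In each library a molecule of RNA is counted once through its unique molecular identifier (UMI), read near the 3′ end. Since both libraries came from 1 culture, every SD and p below covers the making and reading of a library, and no spread over calves could be had.

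The matrix held 9939 cells and 145631299 UMIs in replicate 1, and 9157 cells and 137818568 UMIs in replicate 2, and 27 cell barcodes occurred in both. The 15 clusters were those of the authors, and a cell was given its cluster through the deposited averages, with 0 of 252240 pairs of gene and cluster differing from the deposited value. In 10 clusters (1 to 6, 8, 9, 11 and 12) the median UMI count per cell ranged from 12929 to 23011. Clusters 7, 10, 13, 14 and 15 had medians from 647 to 5398.5 and are called shallow here. The 8% of cells with the highest doublet scores in each library were marked as doublets, so their total was set in advance. These cells were kept, and they made up 0.886%, 7.10%, 4.77% and 3.35% of clusters 8, 1, 3 and 12, 10.2% of cluster 2 and 14% of cluster 9. The labels of the clusters were checked against marker genes. MYOG, the regulator of myoblast differentiation, stood at 0.11, 0.88, 6.68 and 18.6 UMIs per 10000 UMIs in clusters 8, 1, 3 and 12. MYF5, a myoblast gene, was at 1.57 in cluster 8 and 1.55 in cluster 1. PAX7 and PAX3, the defining genes of satellite cells, were at 0.010 and 0.028 in cluster 8, so the cells of cluster 8, which the study names satellite cells, held few transcripts of either, although their PAX3 level was the highest of the 15 clusters. PDGFRA, a marker of fibro-adipogenic progenitors, was at 1.58 in cluster 9 and between 0.09 and 0.27 in clusters 1, 2, 3, 8 and 12. PTPRC had 1 UMI in all cells, and SOX10 and FOXD3, glial genes, had none.

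Together the 81 members took the largest share of all UMIs in cluster 12, the cells with most MYOG, and the smallest share of any cluster of full depth in cluster 8. The summed level was 347 ± 1.26 UMIs per 10000 UMIs in cluster 12 (mean ± SD, n = 2 libraries). Clusters 3, 1 and 8 followed at 299 ± 1.42, 256 ± 0.90 and 221 ± 1.02. Between these clusters stood cluster 6 at 261 ± 1.70, cluster 2 at 254 ± 1.69, cluster 11 at 248 ± 1.87, cluster 5 at 246 ± 1.40, cluster 9 at 244 ± 0.96 and cluster 4 at 230 ± 0.04. Clusters 11 and 5 were the only neighbours in the order of the 10 clusters whose libraries overlapped. The median UMI count per cell also differed between these clusters, at 13158, 12929, 16482 and 19113 for clusters 8, 1, 3 and 12, while cluster 9, with the highest median of 23011, had a summed level below that of cluster 1. Ribosomal protein genes took 2640 ± 10.1, 2819 ± 15.2, 2682 ± 21.3 and 2471 ± 10.1 UMIs per 10000 in the same clusters. The part of depth and of ribosomal protein transcripts in the order was not tested.

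**Figure D1:**
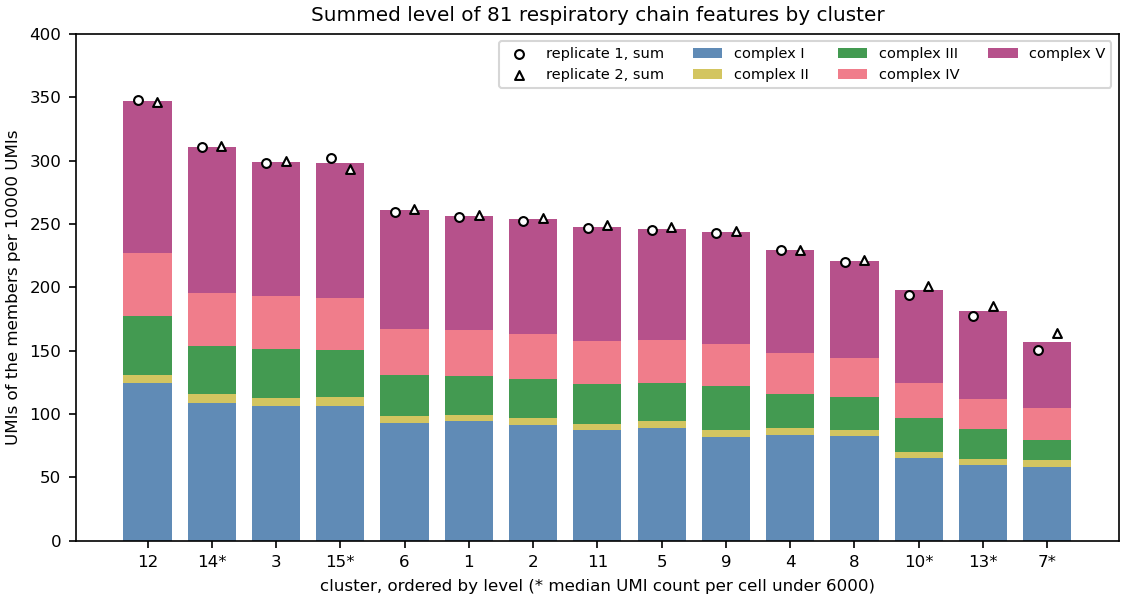
Summed level of the 81 members in each cluster, in UMIs per 10000 UMIs, as bars stacked by complex (mean of the libraries), with the sum in each library as an open circle (replicate 1) or triangle (replicate 2). Cluster 12 stood highest at 347 and cluster 7, a shallow cluster, lowest at 157.

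The shallow clusters spread more widely, from 157 ± 9.63 in cluster 7 to 311 ± 0.64 in cluster 14. Cluster 7 also had the lowest level of ribosomal protein transcripts of the 15 clusters, at 902 ± 5.23, against 2225 ± 53.2 to 3090 ± 10.1 in the others. Among the shallow clusters, ATP5F1B, the catalytic β subunit of ATP synthase, was at 15.6 and 13.1 in the libraries of cluster 7, against 10.2 and 9.75 in cluster 12 and 6.26 and 6.14 in cluster 8. SDHA, the flavoprotein of succinate dehydrogenase, was at 3.27 and 2.4 in cluster 7 and 2.08 and 2.14 in cluster 12. For ATP5F1B and SDHA cluster 7 therefore stood above every cluster of full depth, opposite to its place in the sum; both genes were chosen for mention after their values were seen.

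Among the features matched by name, complexes I and V held the largest parts of the sum in all clusters. The part of complex IV leaves out COX5B, COX6B1, COX6C and COX7C, so the shares do not rank the whole complexes. Complex I held between 32.9% and 37.4% of the members' UMIs, complex V between 33.3% and 38.2%, complex IV between 12.9% and 16%, complex III between 10.1% and 14% and complex II between 1.92% and 3.33%. With NDUFA4, the most abundant member, counted in complex IV, where it has since been placed, complex I held between 27.6% and 30.2% and complex IV between 17.7% and 25.5%. Of the 81 members, 68 had their highest level among the 10 clusters of full depth in cluster 12. The lowest level fell in cluster 8 for 43 members, in cluster 9 for 17 and in cluster 4 for 10. The same counts over all genes were not made, so these are a description of the members only. Over the 79 members with at least 1000 UMIs, the highest level was 1.57 times the lowest (median), with 30 members under 1.5 times and 14 over 2 times.

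Few members were highest elsewhere. Among them, ATP5F1C, ATP5MC1, COX7A2L, SDHC and UQCRQ were highest in cluster 9, NDUFA13 and NDUFA4L2 in cluster 8, COX7A1 and ATP5MC2 in cluster 1, SDHB and COX4I2 in cluster 5, and NDUFB10 in cluster 11. Not all of these peaks were resolved. COX4I2 had 6 UMIs in cluster 5, and the libraries of SDHB in cluster 5 overlapped those of clusters 8 and 1. Those of COX7A1 in cluster 1 overlapped those of cluster 12. Within each library, however, SDHB was highest in cluster 5 and COX7A1 in cluster 1 among the 10 clusters of full depth. The margins were small. SDHB was at 2.12 and 1.99 in cluster 5, 2.10 and 1.92 in cluster 8 and 2.05 and 1.95 in cluster 1. COX7A1 was at 0.33 and 0.378 in cluster 1 and 0.301 and 0.374 in cluster 12. The libraries of ATP5MC1 in cluster 9, at 4.16 and 4.09, overlapped those of cluster 12, at 4.01 and 4.14. ATP5MC2 differed more by library than by cluster. So did NDUFA13, at 0.85 and 1.40 in the libraries over all cells and between 1.03 and 1.34 over the 10 clusters. COX7A2L, which takes part in joining complexes III and IV, ran opposite to most members, at 2.88 and 2.8 in the libraries of cluster 9 and 2.03 and 1.99 in those of cluster 12, its lowest level among the 10 clusters of full depth.

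**Figure D2:**
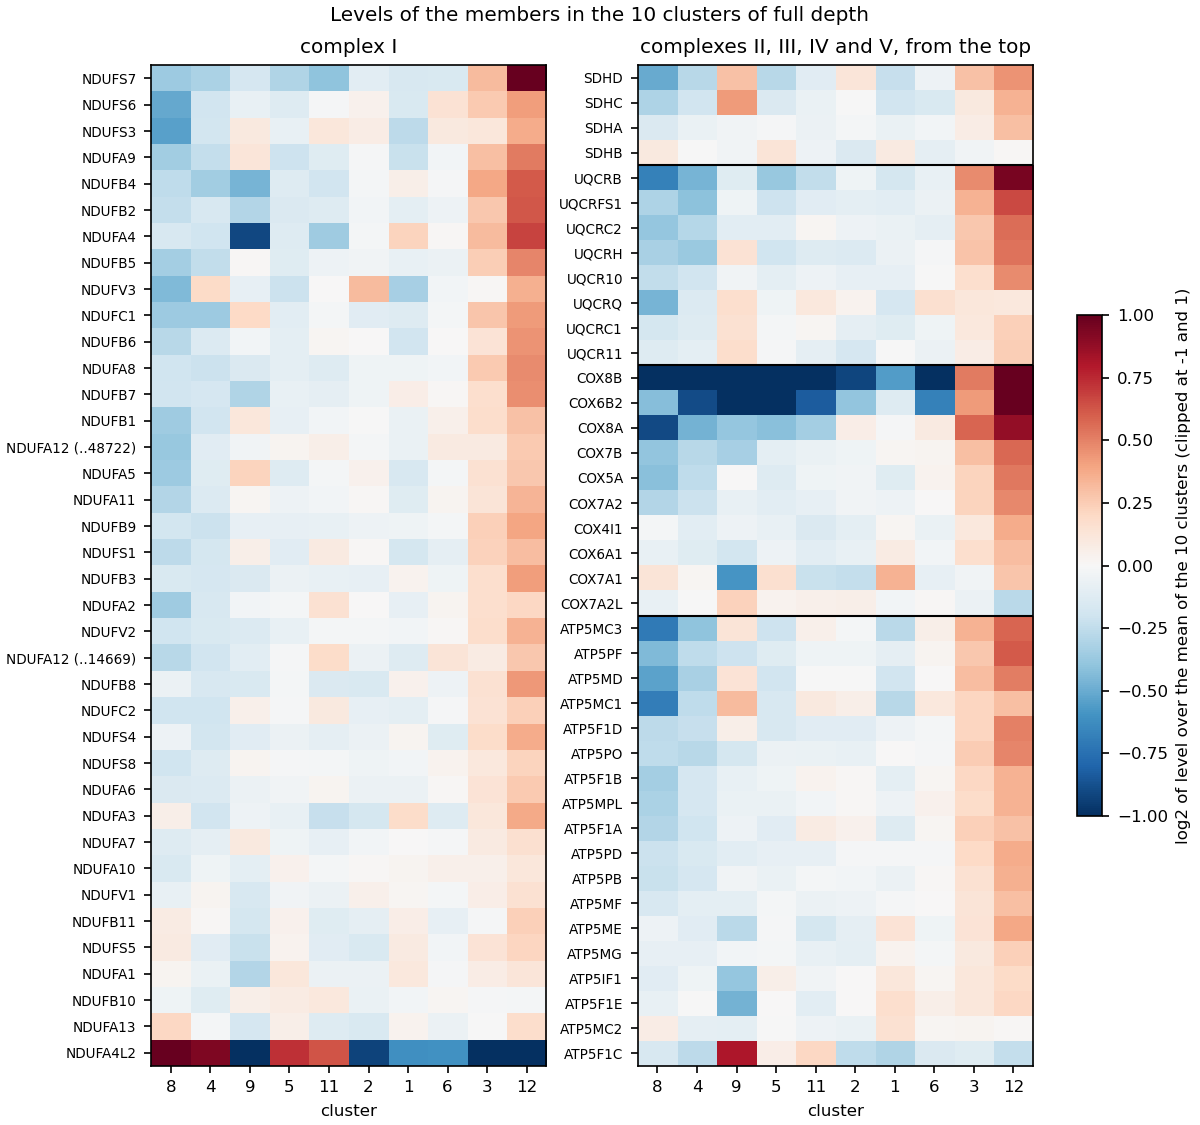
Levels of members with at least 1000 UMIs in the 10 clusters of full depth, as the log2 of its level over its own mean across the 10 clusters (colour, limited to -1 and 1), with members of complex I on the left and of complexes II to V on the right. The column of cluster 12 is red for most members, and NDUFA4L2, COX7A2L and ATP5F1C are among those for which it is not.

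The study placed clusters 8, 1, 3 and 12, in that order, on a course of myogenic differentiation, and each step was compared as 2 library sums against 2 with edgeR's quasi-likelihood test, fitted over all genes and called at a Benjamini-Hochberg adjusted p under 0.05. Of the 81 members, 79 passed the filter on low counts in each comparison, and COX4I2 with 35 UMIs and COX6A2 with 8 did not. Since the clusters were made from these same counts, genes had to differ between them, and a small p is no independent evidence. The counts of members are therefore set beside the share of all genes called. Log2 fold changes of single genes are given ± an approximate SE. It is the absolute log2 fold change divided by the square root of the F statistic of the test.

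From cluster 8 to cluster 1, 46 of 79 members were called higher, where 17.2% of 11194 genes were, and 1 was called lower, where 16.9% were. Between cluster 1 and cluster 3, 52 members were called higher (21.1% of 11362 genes) and 1 lower (19.1%). In cluster 12 against cluster 3, 62 members were called higher (18.2% of 10811 genes) and 1 lower (15.6%). The members called lower were NDUFA4L2 in the comparisons of cluster 1 with cluster 8 and of cluster 12 with cluster 3, and COX7A1 in that of cluster 3 with cluster 1. Most of the chain was thus higher at each step, with median log2 fold changes of 0.21, 0.27 and 0.29 over the members, where the medians of all genes tested were between -0.02 and 0.00. Fits blocked on the library called 65, 64 and 73 members higher at the 3 steps, where 23.8%, 28.8% and 23.7% of all genes were, and 3, 4 and 2 lower, where 22.4%, 26.4% and 22.3% were. The libraries of the clusters compared did not overlap for 61, 64 and 66 of the 79 members, which was also so for 67.7%, 71.0% and 71.0% of all genes tested.

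Along all 3 steps, 52 of the 79 members (65.8%) had a higher level at every step in both libraries, which was so for 8.04% of the 10525 genes tested at each step. The call was higher at all 3 steps for 37 members (46.8%), against 4.67% of all genes. In the fits without a block, only 2 members, NDUFA4L2 and COX7A1, were called lower at any step (2.53%), where 34.9% of all genes were. The blocked fits called 3, 4 and 2 members lower at the 3 steps, where 22.4%, 26.4% and 22.3% of all genes were. By complex, the level rose at every step in both libraries for 28 of 39 members of complex I, 3 of 4 of complex II, 5 of 8 of complex III, 6 of 10 of complex IV and 10 of 18 of complex V.

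**Figure D3:**
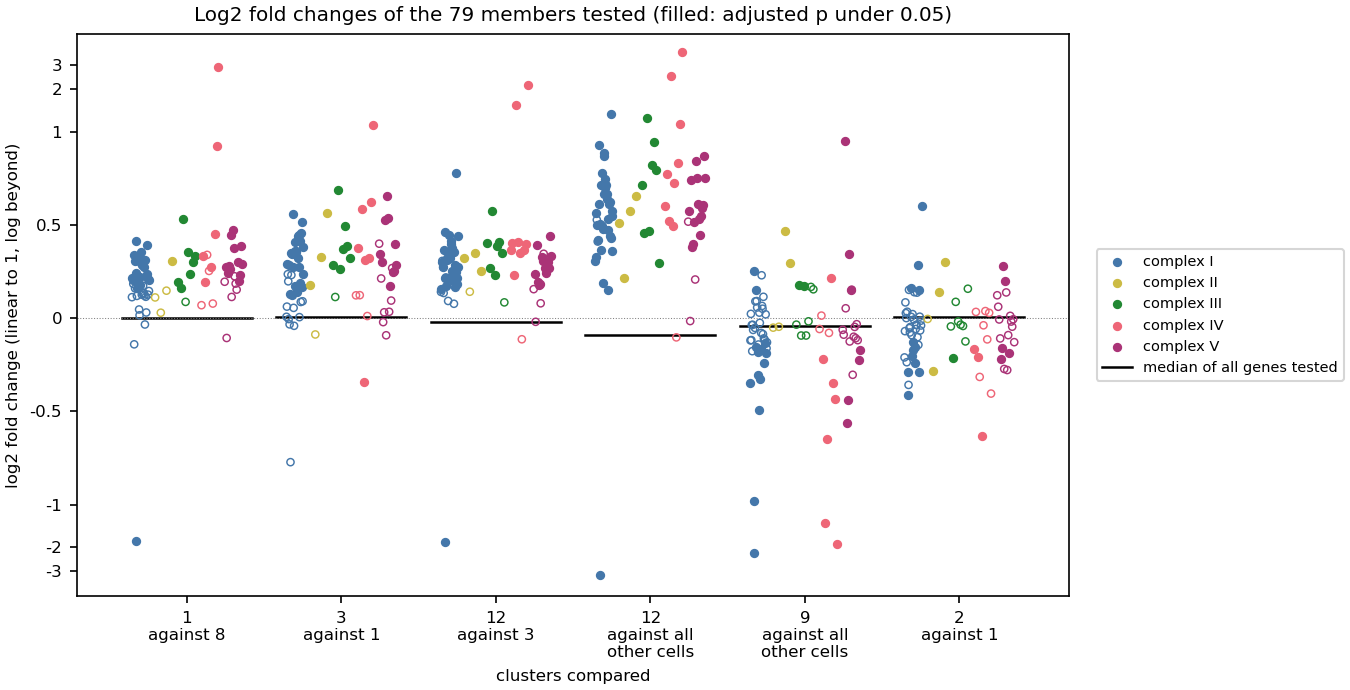
Log2 fold change of each of the 79 members tested in the 6 comparisons (points coloured by complex, filled where the adjusted p was under 0.05), with the median of all genes tested as a black line; the axis is linear between -1 and 1 and logarithmic beyond. Nearly all members lie above that line at the 3 steps and in cluster 12, and they lie on both sides of it in cluster 9 and in cluster 2 against cluster 1.

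Complex I, with NDUFA4 counted in it by name, rose in sum from 82.0 and 83.1 UMIs per 10000 in the libraries of cluster 8 to 93.8 and 94.7 in cluster 1, 106 and 107 in cluster 3 and 125 and 124 in cluster 12. Of its 39 members, 20, 26 and 30 were called higher at the 3 steps, where 17.2%, 21.1% and 18.2% of all genes were. NDUFA4, named for complex I and since assigned to cytochrome c oxidase, was at 16 and 15.9 in cluster 8, 20.8 and 20.7 in cluster 1, 22.3 and 21.9 in cluster 3 and 28.9 and 27.9 in cluster 12. The libraries were apart at every step, and the log2 fold changes were 0.41 ± 0.042 (adjusted p = 0.000177), then 0.13 ± 0.043 (adjusted p = 0.0482) and 0.46 ± 0.051 (adjusted p = 0.000345). The call between clusters 1 and 3 was lost in DESeq2 (adjusted p = 0.0513), without TMM (trimmed mean of M-values, the scaling of library sizes), without the filter on low counts and without doublets.

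NDUFS7, the core subunit that holds the last iron-sulfur cluster before ubiquinone, changed most at the last step. Its levels were 1.79 and 1.73 in cluster 8, 2.02 and 2.03 in cluster 1, 2.82 and 2.83 in cluster 3 and 4.55 and 4.51 in cluster 12. The log2 fold change grew from 0.24 ± 0.049 (adjusted p = 0.00697) to 0.51 ± 0.041 (adjusted p = 0.000136) and 0.78 ± 0.048 (adjusted p = 1.72e-05), the last being the largest of complex I at that step. NDUFA9, an accessory subunit near the ubiquinone site, was at 0.686 and 0.685 in cluster 1 and 0.992 and 0.974 in cluster 3, with a log2 fold change of 0.56 ± 0.050 (adjusted p = 0.000209). NDUFS3, another core subunit, rose at all 3 steps, from 0.642 and 0.637 in cluster 8 to 1.18 and 1.23 in cluster 12. NDUFS5, an accessory subunit, hardly moved before the last step, at 2.5 and 2.42 in cluster 8, 2.47 and 2.43 in cluster 1 and 2.56 and 2.51 in cluster 3, and its call in cluster 12 against cluster 3 (0.17 ± 0.049, adjusted p = 0.0316) was lost without TMM, in DESeq2 and without the filter.

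In complex II the membrane anchors rose with most of the chain. SDHD was at 0.749 and 0.714 in cluster 8, 0.893 and 0.87 in cluster 1, 1.27 and 1.27 in cluster 3 and 1.45 and 1.38 in cluster 12, and was called higher at each step, with the largest log2 fold change of 0.56 ± 0.048 (adjusted p = 0.000162). Its call between clusters 3 and 12 was lost without TMM (adjusted p = 0.0536). SDHC was at 0.834 and 0.861 in cluster 1, 1.03 and 1.04 in cluster 3 and 1.21 and 1.26 in cluster 12, and both later steps were called (0.33 ± 0.047, adjusted p = 0.00167; 0.35 ± 0.055, adjusted p = 0.00213). SDHA was at 1.59 and 1.52 in cluster 8, 1.67 and 1.61 in cluster 1, 1.77 and 1.84 in cluster 3 and 2.08 and 2.14 in cluster 12. It was called higher at the last 2 steps, although DESeq2 gave an adjusted p of 0.0593 for cluster 3 against cluster 1. SDHB, the iron-sulfur subunit, did not follow: its levels were 2.1 and 1.92 in cluster 8, 2.05 and 1.95 in cluster 1, 1.85 and 1.82 in cluster 3 and 1.95 and 1.83 in cluster 12. None of its 3 steps was called, and the log2 fold changes were 0.03 ± 0.062 (adjusted p = 0.763), -0.09 ± 0.049 (adjusted p = 0.198) and 0.14 ± 0.060 (adjusted p = 0.109).

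In complex III, each step called 7 of 8 members higher, not always the same ones, where 17.2%, 21.1% and 18.2% of all genes were. At all 3 steps 5 were called higher, against 4.67% of all genes. UQCRB, the ubiquinone-binding subunit, had the largest change of the complex, from 3.24 and 2.9 in cluster 8 to 4.58 and 4.07 in cluster 1, 6.98 and 6.56 in cluster 3 and 9.88 and 8.97 in cluster 12. No 2 clusters of the 4 overlapped, and the log2 fold changes were 0.53 ± 0.078 (adjusted p = 0.00129), 0.68 ± 0.069 (adjusted p = 0.000353) and 0.57 ± 0.068 (adjusted p = 0.000514). UQCRH, the hinge protein that binds cytochrome c1, went from 5.76 and 5.24 in cluster 8 to 6.86 and 6.37, 8.75 and 8.09 and 10.4 and 9.65 in clusters 1, 3 and 12. Replicate 1 stood above replicate 2 in every one of these clusters for both genes, and the SE of their log2 fold changes reached 0.078.

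**Figure D4:**
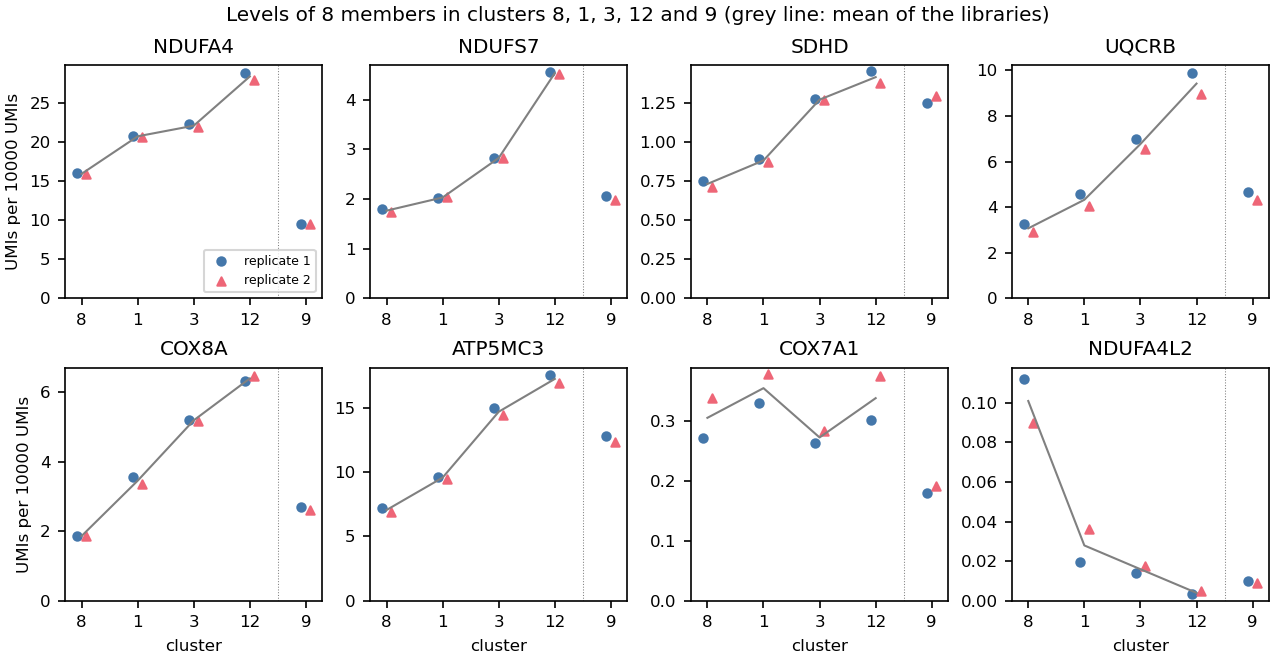
Levels of 8 members, in UMIs per 10000 UMIs, in clusters 8, 1, 3 and 12 and, right of the dotted line, cluster 9, with replicate 1 as circles, replicate 2 as triangles and the mean as a grey line. NDUFA4, NDUFS7, SDHD, UQCRB, COX8A and ATP5MC3 climb from cluster 8 to cluster 12, COX7A1 does not, and NDUFA4L2 falls.

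Complex IV held both the largest rises and the isoform genes. COX8A, the widely expressed form of the smallest subunit, was at 1.86 and 1.87 in cluster 8, 3.55 and 3.36 in cluster 1, 5.2 and 5.18 in cluster 3 and 6.32 and 6.47 in cluster 12. It had the largest log2 fold change of all members above 0.1 UMI per 10000 between clusters 8 and 1, at 0.93 ± 0.054 (adjusted p = 8.61e-06), followed by 0.62 ± 0.047 (adjusted p = 0.000103) and 0.40 ± 0.046 (adjusted p = 0.000425). COX8B, its paralogue of heart and skeletal muscle, had 0.00453 and 0.00491 UMIs per 10000 in cluster 8, 0.0291 and 0.0409 in cluster 1, 0.0703 and 0.0779 in cluster 3 and 0.263 and 0.358 in cluster 12. Its log2 fold changes were 2.90 ± 0.39 (adjusted p = 0.000827), 1.12 ± 0.19 (adjusted p = 0.00329) and 2.17 ± 0.15 (adjusted p = 3.22e-05), and the first rests on 8 UMIs in cluster 8.

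COX6B2, known as the testis form of a subunit that faces the intermembrane space, was low everywhere but was at 0.0618 and 0.0664 in cluster 3 and 0.156 and 0.195 in cluster 12, with a log2 fold change of 1.55 ± 0.15 (adjusted p = 0.000178). COX7B, a small structural subunit, went from 2.76 and 2.59 in cluster 8 to 3.75 and 3.38 in cluster 1, with a log2 fold change of 0.45 ± 0.067 (adjusted p = 0.00138), and on to 5.49 and 4.95 in cluster 12. COX4I1 and COX6A1, the widely expressed forms of their subunits, changed less. COX4I1 was at 8.47 and 7.94 in cluster 8, 9.03 and 8.81 in cluster 3 and 11.2 and 10.2 in cluster 12, and only the step to cluster 12 was called (0.36 ± 0.062, adjusted p = 0.00319). COX6A1 was at 5.74 and 5.44 in cluster 8 and 7.44 and 7.1 in cluster 12, and was called between clusters 8 and 1 (0.19 ± 0.048, adjusted p = 0.0156) and between clusters 3 and 12 (0.23 ± 0.055, adjusted p = 0.0135).

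COX7A1, the muscle form of its subunit, did not follow COX8B. It was at 0.272 and 0.337 in cluster 8, 0.33 and 0.378 in cluster 1, 0.262 and 0.282 in cluster 3 and 0.301 and 0.374 in cluster 12. The libraries of clusters 8, 1 and 12 overlapped, and within each library the order from the highest was cluster 1, 12, 8 and 3. The fall between clusters 1 and 3 (-0.34 ± 0.082, adjusted p = 0.0135) and the rise to cluster 12 (0.41 ± 0.11, adjusted p = 0.0205) were both lost in DESeq2, with adjusted p = 0.0617 and 0.0861, and the latter also without TMM (adjusted p = 0.0655). COX7A2, its widely expressed paralogue, rose at each step, from 6.55 and 6.44 in cluster 8 to 7.8 and 7.56, 9.32 and 9.25 and 11.2 and 11 in clusters 1, 3 and 12.

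As shares of the UMIs of each pair, which need no scaling between clusters, the muscle forms made up at most 4.64% in the clusters of full depth. A share does compare the counts of both genes of a pair, and whether both were counted equally well was not tested. COX8B gave 0.252% of the COX8A and COX8B UMIs in cluster 8 (95% exact binomial interval 0.109 to 0.497%, for counting error only), 1.0% in cluster 1 (0.829 to 1.2%), 1.40% in cluster 3 (1.24 to 1.58%) and 4.64% in cluster 12 (4.20 to 5.11%). The libraries of cluster 12 gave 4.0% and 5.24%, a wider gap than the interval, and both were above the 1.33% and 1.48% of cluster 3. COX7A1 gave 4.46%, 4.4%, 2.84%, 2.96% and 2.39% of its pair in clusters 8, 1, 3, 12 and 9. Unlike that of COX8B, its share was not highest in cluster 12.

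COX8B was found in single cells too. At least 1 UMI of it was seen in 36.0% of the 627 cells of cluster 12 (32.3 to 39.9%), and in 10.1%, 3.97%, 0.645% and 2.69% of those of clusters 3, 1, 8 and 9. Each cell was then thinned to 5000 UMIs, which left out 14 cells of cluster 12. The share was 14% in cluster 12 (11.4 to 17.0%), and 3.59%, 1.42%, 0.324% and 0.370% in clusters 3, 1, 8 and 9. The order of the clusters was the same, but the intervals of clusters 8 and 9 overlapped after thinning. Cluster 9, which the study calls fibro-adipogenic progenitors, had greater depth than these clusters, and 14% of its cells were marked as doublets. The share of cluster 8 was not above that of cluster 9 before or after thinning. Whether cluster 9 gives a background free of myogenic transcripts was not tested. COX6A2, the muscle form of another subunit, had 8 UMIs, all in cluster 12, of which 1 was in replicate 1 and 7 in replicate 2. They lay in 7 of 627 cells (1.12%, 0.450 to 2.29%), and it was seen in 0 of the 18469 other cells, which allows a share of up to 0.0162% of cells with a UMI and sets no limit on cells that express the gene. After thinning, 1 of 613 cells of cluster 12 held it. COX4I2, known from lung and low oxygen, had 35 UMIs in all.

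NDUFA4L2, a paralogue of NDUFA4 that is induced by low oxygen, ran the other way. It was at 0.112 and 0.0896 in cluster 8, 0.0198 and 0.0361 in cluster 1, 0.0143 and 0.0177 in cluster 3 and 0.00325 and 0.00479 in cluster 12, the last from 5 UMIs. It fell from cluster 8 to cluster 1 (-1.82 ± 0.27, adjusted p = 0.00129), and its call in cluster 12 against cluster 3 (-1.86 ± 0.50, adjusted p = 0.0232) was lost in DESeq2 (adjusted p = 0.213). Of the UMIs of the pair it gave 0.632% in cluster 8 (0.541 to 0.733%), and 0.525%, 0.474% and 0.434% in clusters 4, 11 and 5. The share was 0.134% in cluster 1 and 0.014% in cluster 12 (0.0046 to 0.033%). Clusters 8, 4, 11 and 5 were thus apart from clusters 1, 2, 3, 6, 9 and 12, where the share was at most 0.156%.

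**Figure D5:**
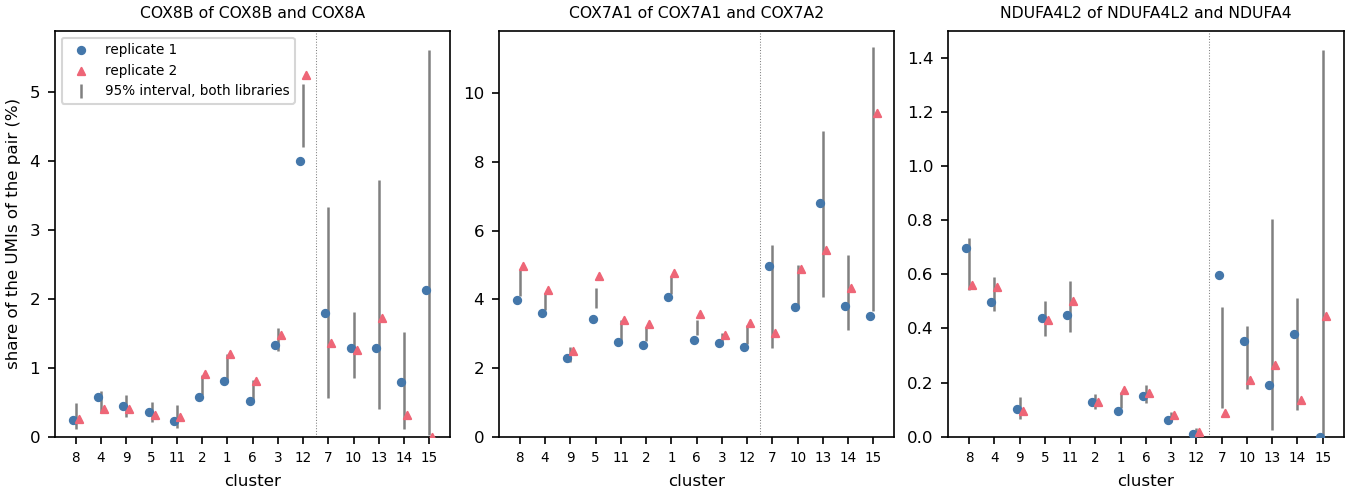
Share of COX8B, COX7A1 and NDUFA4L2 in the UMIs of each pair, in percent, by cluster, with replicate 1 as circles, replicate 2 as triangles and 95% exact binomial intervals of both libraries as grey bars; shallow clusters are right of the dotted line. COX8B reaches 4.64% in cluster 12, and NDUFA4L2 is highest in clusters 8, 4, 11 and 5 among those of full depth.

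Complex V rose in sum from 75.1 and 77.3 in cluster 8 to 88.6 and 91.1 in cluster 1, 104 and 107 in cluster 3 and 118 and 121 in cluster 12. Of its 18 members, 12, 10 and 13 were called higher at the 3 steps, where 17.2%, 21.1% and 18.2% of all genes were. ATP5MC1, ATP5MC2 and ATP5MC3 encode the same mature subunit c of the proton-driven ring. ATP5MC3 was at 7.18 and 6.94 in cluster 8, 9.65 and 9.5 in cluster 1, 15 and 14.4 in cluster 3 and 17.6 and 16.9 in cluster 12, with log2 fold changes of 0.47 ± 0.046 (adjusted p = 0.000133), 0.65 ± 0.046 (adjusted p = 7.88e-05) and 0.33 ± 0.053 (adjusted p = 0.00231). ATP5MC1 went from 2.07 and 2.04 in cluster 8 to 2.76 and 2.71 in cluster 1 and 3.85 and 3.83 in cluster 3. ATP5MC2 was between 1.51 and 1.79 in the 10 clusters of full depth, and its libraries differed more than its clusters, at 1.18 and 2.2 in cluster 8 and 1.1 and 2.14 in cluster 12.

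ATP5IF1, the inhibitor that stops ATP synthase from running backwards, was at 6.11 and 6.19 in cluster 8, 7.28 and 7.12 in cluster 1, 7.14 and 7.2 in cluster 3 and 7.59 and 7.58 in cluster 12. The steps from cluster 8 to cluster 1 (0.26 ± 0.045, adjusted p = 0.0029) and from cluster 3 to cluster 12 (0.18 ± 0.046, adjusted p = 0.0203) were called, the latter not without TMM. ATP5F1E, the ε subunit, was at 8.1 and 8.48 in cluster 8 and 9.45 and 10.2 in cluster 1, with a log2 fold change of 0.28 ± 0.049 (adjusted p = 0.00324). It was at 9.13 and 9.72 in cluster 3 and at 9.89 and 10.2 in cluster 12, and 2 of its 3 steps were called higher.

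Cluster 12 was also compared with all other cells. Of 79 members, 72 were called higher, where 24.8% of 13224 genes were, and 1, NDUFA4L2, was called lower, where 29.5% were. The fit blocked on library called 76 higher (28.0% of all genes) and 2 lower (33.2%). All 4 members of complex II and all 8 of complex III were among those called higher, with 36 of 39 of complex I, 9 of 10 of complex IV and 15 of 18 of complex V. COX8B had 0.263 and 0.358 UMIs per 10000 in cluster 12 and 0.0247 and 0.0287 in the other cells, a log2 fold change of 3.72 ± 0.16 (adjusted p = 9.45e-06). The next largest log2 fold changes were those of COX6B2 (2.50 ± 0.14, adjusted p = 2.27e-05), NDUFS7 (1.32 ± 0.048, adjusted p = 5.24e-06), UQCRB (1.26 ± 0.078, adjusted p = 3.78e-05) and COX8A (1.14 ± 0.050, adjusted p = 9.81e-06). The median log2 fold change was 0.57 over the members and -0.09 over all genes. Without TMM these were 0.39 and -0.27, and of all genes 2452 were then called higher and 5209 lower, against 3273 and 3906. For cluster 12 against cluster 3 the same change gave 0.19 over the members and -0.12 over all genes, with 42 members called higher (14.4% of all genes), and 1552 genes higher and 2527 lower against 1963 and 1687. The calls of SDHB and COX7A1 in cluster 12 against all other cells were lost without TMM.

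Cluster 9, the PDGFRA-high cells of full depth, was compared with all other cells, and members were called in both directions. Of 79 members, 10 were called higher, where 25.3% of 13205 genes were, and 22 lower, where 27.7% were. As shares of 79 these are 12.7% and 27.8%, the first below that of all genes and the second about the same in this fit without a block. Blocking on the library gave 17 of 79 higher, where 30.3% of all genes were, and 40 of 79 lower, where 33.3% were. In the blocked fit the share called higher was again below that of all genes, but the share called lower was above it. Without the filter on low counts 6 were higher, where 17.6% of 16816 genes were. The median log2 fold change was -0.08 over the members and -0.04 over all genes. By complex, 2 members of complex I were higher and 12 lower, 1 of complex IV higher and 6 lower, and 3 of complex V higher and 4 lower, and in complexes II and III the calls were 2 each, all higher.

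The largest rise in cluster 9 was that of ATP5F1C, the γ subunit that turns within ATP synthase. It was at 2.86 and 3.03 in the libraries of cluster 9 and 1.28 and 1.71 in the other cells, a log2 fold change of 0.95 ± 0.12 (adjusted p = 0.00103). SDHC was at 1.29 and 1.31 against 0.915 and 0.919 (0.47 ± 0.045, adjusted p = 0.000304), and SDHD at 1.25 and 1.29 against 1.02 and 1.01 (0.29 ± 0.048, adjusted p = 0.0029), so both anchors of complex II were higher in cluster 9 while SDHA and SDHB were not called. ATP5MC1 was at 4.16 and 4.09 against 3.18 and 3.17 (0.34 ± 0.044, adjusted p = 0.00101), and NDUFA5, an accessory subunit of complex I, at 1.79 and 1.92 against 1.45 and 1.59 (0.25 ± 0.058, adjusted p = 0.0121).

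The largest fall above 0.1 UMI per 10000 was that of NDUFA4, at 9.45 and 9.45 in cluster 9 and 18.3 and 18.2 in the other cells, a log2 fold change of -0.98 ± 0.044 (adjusted p = 1.36e-05). Cluster 9 had the lowest NDUFA4 level of the 10 clusters of full depth. COX7A1 was at 0.18 and 0.19 against 0.258 and 0.31 (-0.65 ± 0.098, adjusted p = 0.00205), and ATP5F1E at 6.15 and 6.41 against 8.78 and 9.35 (-0.56 ± 0.047, adjusted p = 0.000172). NDUFB4, an accessory subunit of the membrane arm, was at 1.69 and 1.66 against 2.29 and 2.32 (-0.49 ± 0.043, adjusted p = 0.000212), and ATP5IF1 at 5.06 and 5.08 against 6.77 and 6.67 (-0.44 ± 0.044, adjusted p = 0.000357). In each of these 5 genes the libraries of cluster 9 lay below both libraries of the other cells. NDUFA4L2, COX8B and COX6B2 were lower as well, at levels under 0.1.

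Clusters 2 and 1 both held MYOD1, at 6.72 and 5.18 UMIs per 10000, and differed in genes of cell division. TOP2A, which untangles DNA before mitosis, was at 5.73 in cluster 2 and 0.18 in cluster 1. In cluster 2, 8 of 79 members were called higher, where 22.7% of 11494 genes were, and 16 lower, where 19.3% were. The median log2 fold change was -0.04 over the members and 0.01 over all genes, and without TMM these were 0.0080 and 0.06, so that the median of the members lay below that of all genes under both scalings. Without TMM 12 members were called higher (26.6% of all genes) and 11 lower (16.4%). In the blocked fit 17 were higher (29.9% of all genes) and 29 lower (26.7%). NDUFV3, an accessory subunit of the NADH-binding part of complex I, stood apart at 2.01 and 1.97 in cluster 2 and 1.26 and 1.28 in cluster 1, with a log2 fold change of 0.60 ± 0.042 (adjusted p = 4.69e-05). SDHD (0.30 ± 0.045, adjusted p = 0.00183), NDUFS3 (0.28 ± 0.051, adjusted p = 0.00419), ATP5MC1 (0.28 ± 0.038, adjusted p = 0.00116) and ATP5MC3 (0.20 ± 0.038, adjusted p = 0.00557) were next.

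Lower in cluster 2 was above all COX7A1, at 0.214 and 0.259 in cluster 2 and 0.33 and 0.378 in cluster 1, with a log2 fold change of -0.63 ± 0.11 (adjusted p = 0.00293). NDUFA3, an accessory subunit of complex I, was at 0.533 and 0.637 in cluster 2 and 0.71 and 0.794 in cluster 1 (-0.41 ± 0.090, adjusted p = 0.00935), and NDUFA4 at 17.4 and 17.8 in cluster 2 and 20.8 and 20.7 in cluster 1 (-0.29 ± 0.034, adjusted p = 0.000586). NDUFS5 (-0.29 ± 0.046, adjusted p = 0.00231) and SDHB (-0.28 ± 0.058, adjusted p = 0.00722) were also lower, so that SDHD and SDHB were called in opposite directions. The 6 comparisons share clusters, since clusters 1, 3 and 12 each entered several of them and the other cells of 2 comparisons hold nearly all clusters.

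Genes that work with the chain but fall outside its names were read in the same fits. Cytochrome c (CYCS), which carries electrons from complex III to complex IV, rose over clusters 8, 1, 3 and 12 from 2.56 ± 0.029 through 3.2 ± 0.051 and 5.73 ± 0.00027 to 6.65 ± 0.20 (mean ± SD, n = 2), and was called higher at each step. CYC1, the haem protein of complex III, was at 2.16 ± 0.036, 2.66 ± 0.037, 3.79 ± 0.060 and 4.50 ± 0.0068 in the same clusters, and NDUFAB1, the acyl carrier of complex I, at 1.79 ± 0.039, 2.12 ± 0.055, 2.67 ± 0.045 and 3.00 ± 0.025. Both were called at each step. CYCS was also higher in cluster 9 than in the other cells, at 7.44 ± 0.22 against 4.32 ± 0.061, with a log2 fold change of 0.75 ± 0.048 (adjusted p = 5.9e-05). ETFA and ETFDH, which bring electrons of fatty acid oxidation to ubiquinone, were not called higher in cluster 12: ETFA was at 0.74 ± 0.013, 0.90 ± 0.016, 0.78 ± 0.018 and 0.64 ± 0.028 in clusters 8, 1, 3 and 12.

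Of 13 genes of the citrate cycle, 6, 10 and 7 were called higher at the 3 steps and 10 in cluster 12 against all other cells, where 17.2%, 21.1%, 18.2% and 24.8% of all genes were, and all their calls there were of that direction. Their median log2 fold changes were 0.17, 0.37, 0.22 and 0.57 in these comparisons. Of the assembly factors, which put the complexes together, 8 of 43 tested were called higher and 1 lower from cluster 8 to cluster 1, and 19 of 44 higher and 1 lower from cluster 1 to cluster 3. Between clusters 3 and 12, 9 of 45 were called, all higher. These counts come to 18.6%, 43.2% and 20% called higher, so that those of the first and last step were close to the 17.2% and 18.2% of all genes, and that of the step between them was above the 21.1% of all genes. Their medians were 0.17, 0.28 and 0.10, the last below that of the subunits at 0.29.

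The 12 tested regulators of mitochondrial genes were called in both directions. In cluster 12 against all other cells 3 were called higher, the share of all genes (24.8%) being about the same, and 6 lower, where 29.5% of all genes were, with a median log2 fold change of -0.14. Between clusters 3 and 12 both calls were lower (15.6% of all genes), and between clusters 1 and 3 the calls were 5 higher (21.1%) and 1 lower (19.1%). Of the 12, PPARGC1A and PPARGC1B, coactivators of mitochondrial genes chosen for mention after their values were seen, were called in opposite directions in cluster 3 against cluster 1: PPARGC1A was at 0.026 ± 0.0026 in cluster 3 and 0.061 ± 0.0018 in cluster 1, and PPARGC1B at 0.18 ± 0.016 and 0.041 ± 0.0072.

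Some members differed between the libraries. Over all cells, 10 of the 79 members with at least 20 UMIs in each library had a log2 ratio of replicate 1 to replicate 2 beyond 0.2 in either direction (12.7%), where 18% of 12879 genes did. The first NDUFA12 identifier, NDUFA12 (ENSBTAG00000014669), was at 0.075 in replicate 1 and 0.24 in replicate 2, ATP5MC2 at 1.12 and 2.07, NDUFA13 at 0.85 and 1.40, and ATP5F1A at 3.11 and 4.41. ATP5F1C, at 1.43 and 1.83, was among them too. For NDUFA12 (ENSBTAG00000014669), NDUFA13, ATP5F1A, ATP5F1C and ATP5MC2 no call was made in cluster 12 against all other cells in the fit without a block. The sixth member without a call there was COX7A2L. The fit blocked on the library called 76 of the 79 members higher there (28.0% of all genes) and 2 lower (33.2%). Nearly all of the members without a call were thus called once the library was a block.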

How the data were processed

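Single cells of 1 culture were measured in 2 droplet libraries. The deposited UMI counts per gene and cell were made by the authors with Cell Ranger 3.0.2 on the assembly ARS-UCD1.2, subsampling the deeper library to the mapped depth of the other when combining them, and they also deposited cluster averages, in counts per cell. From these averages the cluster of each cell was deduced. Counts were summed per library and cluster and given per 10000 UMIs. The sums were compared with the quasi-likelihood test of edgeR 4.0.16 (R 4.3.3), with TMM, filterByExpr, no other covariate, Benjamini-Hochberg adjustment over all genes tested and a threshold of 0.05, and the procedure was tested on simulated data. Same-numbered sums share a library, and their deviations from the group means correlated at 0.396 to 0.633 over the genes of each comparison, so fits with the library as a block are given where they move a count. DESeq2 1.42.0, no TMM, no filter, leaving out the 1528 cells marked as doublets (kept otherwise) or 1898 cells under 2000 UMIs, and leaving out each library were the alternatives. The cells marked were the 8% of each library with the highest scores of Scrublet in scanpy 1.11.5. Intervals are exact binomial (Clopper-Pearson, scipy 1.17.1) and cover counting error only. Named genes were the isoform pairs, the 5 members called with the largest log2 fold change in each direction of each comparison at 0.1 UMI per 10000 or more, the most abundant member of each complex, complex II, ATP5IF1 and members under 20 UMIs. The members and lists were chosen with earlier results of these data known. The authors' own columns of comparisons were not used. Of the symbols in the lists of related genes, those of the 13 mitochondrially encoded subunits matched no feature name and were not analysed here. The values of 1 member are not reported by name here.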

Additional observations from a re-analysis of the deposited data

How the results depend on the processing

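The counts of members called were within 1.5 times of those reported in most alternatives, and the exceptions were these. With the library as a block, more members were called: 2 lower in cluster 12 against all other cells, 17 higher and 40 lower in cluster 9, 2 lower in cluster 12 against cluster 3, 4 lower in cluster 3 against cluster 1, 3 lower in cluster 1 against cluster 8, and 17 higher and 29 lower in cluster 2 against cluster 1. Without TMM, 2 members were lower in cluster 12 against all other cells and 2 against cluster 3. Without the filter on low counts, 6 were higher in cluster 9. DESeq2 called 0 members lower in cluster 12 against cluster 3 and 0 in cluster 3 against cluster 1, where its unadjusted p was under 0.05 for 0 and 1 members, and edgeR called 1 in each. DESeq2 called 1377 genes higher and 841 lower in cluster 12 against cluster 3. Leaving out doublets or cells under 2000 UMIs kept 12 of 12 counts within 1.5 times. The medians of the log2 fold changes also moved. Without TMM those over the members were 0.39 in cluster 12 and -0.04 in cluster 9 against all other cells, 0.19 in cluster 12 against cluster 3, 0.24 in cluster 3 against cluster 1 and 0.18 in cluster 1 against cluster 8, and those over all genes were -0.27, -0.01, -0.12, -0.03 and -0.04. DESeq2, the fit without the filter and that without doublets moved 3, 3 and 1 of the 6 medians by more than 1 SD of the values by library. Without a library, 1 sum was set against 1 with no test, and the median log2 fold change of the members ranged from 0.56 to 0.58 in cluster 12 against all other cells, -0.10 to -0.06 in cluster 9, 0.26 to 0.30 in cluster 12 against cluster 3, 0.26 to 0.28 in cluster 3 against cluster 1, 0.21 to 0.22 in cluster 1 against cluster 8 and -0.05 to -0.04 in cluster 2 against cluster 1.

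The values that changed sign were small and not called. In cluster 2 against cluster 1 the median over the members was 0.0080 without TMM, ATP5F1C was at 0.044 without TMM and 0.012 without the filter, SDHA at 0.046 and 0.012, COX7A2 at 0.012 without TMM and NDUFS7 at -0.0012 in DESeq2. Without TMM, ATP5IF1 was at -0.0055 in cluster 3 against cluster 1, and NDUFS5 at -0.0043 and SDHB at -0.0057 in cluster 1 against cluster 8. In DESeq2, ATP5F1C was at 0.021 in cluster 12 against all other cells. The causes were not tested. All values rest on 1 animal and on 1 culture, and clusters 7, 10, 13, 14 and 15 had too few UMIs per cell for statements on single members at low level. The share of COX6B2 in its pair was not made, since COX6B1 was not analysed here.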

Other observations

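Over all 15 clusters, the highest level of a member lay in cluster 12 for 36 of 81, in cluster 14 for 19 and in cluster 15 for 19, and the lowest lay in cluster 7 for 45 and in cluster 13 for 27. Clusters 14 and 15 had medians of 2513.5 and 647 UMIs per cell, cluster 7 of 1389 and cluster 13 of 1631, so that shallow clusters stood at both ends of the order. Cluster 14 also stood second in the summed level, at 311 ± 0.64 UMIs per 10000 (mean ± SD, n = 2 libraries). Cluster 15 was at 298 ± 6.4, and its libraries lay on either side of those of cluster 3 at 299 ± 1.42. These values are given as a description. The same counts over all genes were not made, and the part of depth was not tested.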
